A study of Homo sapiens with 8 samples.

Results

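The comparison described here is the response to transforming growth factor β1 (TGF-β1) of MRC5 cells, an established human lung fibroblast line, that carry a short hairpin RNA against MTHFD2 (shMTHFD2). It was read as 2 libraries with TGF-β1 against 2 control libraries, 4 of the 8 libraries in the series, over the 13493 of 60666 gene IDs whose mean over the 8 libraries reached 1 CPM, the unit for counts scaled to a common library total. The other 4 libraries come from MRC5 cells with a control hairpin (shMock), 2 without and 2 with TGF-β1, and serve here to show where the response differed. RNA was measured by bulk mRNA sequencing. The labels give 4 ng of TGF-β1 with no volume and an incubation of 24 h, and this text is attached to control samples as well, so groups follow the titles. As a model the knockdown line rests on 1 hairpin, with no rescue and no untransduced cells among the libraries, and the labels do not say that the 2 libraries of a group are separate cultures. The p-values therefore measure the spread between libraries, which may be technical. For 3 of the 4 shMTHFD2 samples the genotype label names MTHFD3, MTHFD4 or MTHFD5, and the extraction text speaks of A549 cells and a hairpin called shDUSP23. The MTHFD2 level of each library is therefore given first, as a check of the titles.

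TGF-β1 binds a receptor pair with serine/threonine kinase activity, which phosphorylates SMAD2 and SMAD3 so that they enter the nucleus with SMAD4. In lung fibroblasts the cytokine turns resting cells into myofibroblasts, which assemble actin stress fibres and secrete collagen and fibronectin, and it raises the enzymes that make serine, glycine and proline, the amino acids collagen is rich in. MTHFD2 works in mitochondria and belongs to folate metabolism, which uses the carbon released when serine is turned into glycine.

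The protein-coding gene MTHFD2 lies on the plus strand of chromosome 2, from 74198562 to 74217565 in GRCh38 (ENSG00000065911). It stood at 14.9 and 18.7 CPM in the control libraries and 93.8 and 91.8 CPM with TGF-β1 in the shMTHFD2 line. In shMock it stood at 58.8 and 57.1 CPM in the control libraries and 256 and 258 CPM with TGF-β1. Each shMTHFD2 library lay below the shMock libraries of the same treatment, as the titles say. TGF-β1 nevertheless raised the transcript in the knockdown line (2.47 on the log2 scale, SE 0.10, edgeR adjusted p = 8.3e-11), to a level above that of the untreated shMock cells. The rise was 2.15 in shMock, and the difference between the 2 rises was 0.32 (edgeR adjusted p = 0.347). On the opposite strand 2 genes overlap it, whose reads would be included if strand was ignored.

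TGF-β1 changed the transcripts of shMTHFD2 cells broadly. By edgeR's quasi-likelihood test, with a threshold of 0.05 on the adjusted p, 3214 of 13493 genes passed (23.8%). TGF-β1 raised 1725 of them (12.8%) and lowered 1489 (11%). With a minimum of 2-fold the counts were 779 (5.77%), 401 higher (2.97%) and 378 lower (2.8%). The median log2 fold change over all 13493 genes was -0.01. Scaling on library totals alone put that median at -0.12 and the split at 1222 higher and 2455 lower genes, so the balance of directions depends on the scaling. In fits that left out 1 of the 4 shMTHFD2 libraries between 2373 and 2563 genes were called, and 1765 of the 3214 (54.9%) were called in each of the 8 fits without 1 library. Of the 779 with a 2-fold change, 618 were. Total counts of the 8 libraries ran from 18162738 to 22221927, replicates correlated at 0.984 to 0.988 across genes, and the first principal component, with 54.8% of the variance, separated the libraries by TGF-β1.

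Markers of fibroblasts were present, with all 11 detected in each library and a summed level of 30738 to 33040 CPM in the shMTHFD2 controls and 52303 to 53080 CPM with TGF-β1. That sum holds COL1A1 and COL1A2, which account for most of its rise (15268 and 4357 CPM). Of the 11, 6 rose, S100A4 (-0.35) and LUM (-0.22) fell and 3 were not called, and both falls lost their call without shMTHFD2 TGF-β1 2 and without shMTHFD2 control 1. LUM was not called in 9 alternatives in all (edgeR adjusted p = 0.0501 to 0.268). The endothelial markers PECAM1, CDH5, CLDN5 and ERG were at 0 in all groups, as were KRT19, NKX2-1 and SFTPC of epithelium, and CDH1 was at 0 in the shMTHFD2 libraries. What remained of the endothelial list, mainly the receptors TEK and KDR, which both fell, summed to 103 to 108 CPM in the controls and 43.9 to 46.5 CPM with TGF-β1. The epithelial list summed to 25.6 to 33.5 and 29 to 36.3 CPM. CD68, which carried nearly all of the leukocyte list, fell as well, with that list at 75.1 to 76.6 CPM in the controls and 47.6 to 51.2 CPM with TGF-β1. Smooth muscle and pericyte markers summed to 246 to 259 and 308 to 312 CPM, with DES at 0 and MYH11 under 1 CPM. In bulk RNA, fewer cells of a type and less RNA per cell cannot be told apart.

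**Figure D1:**
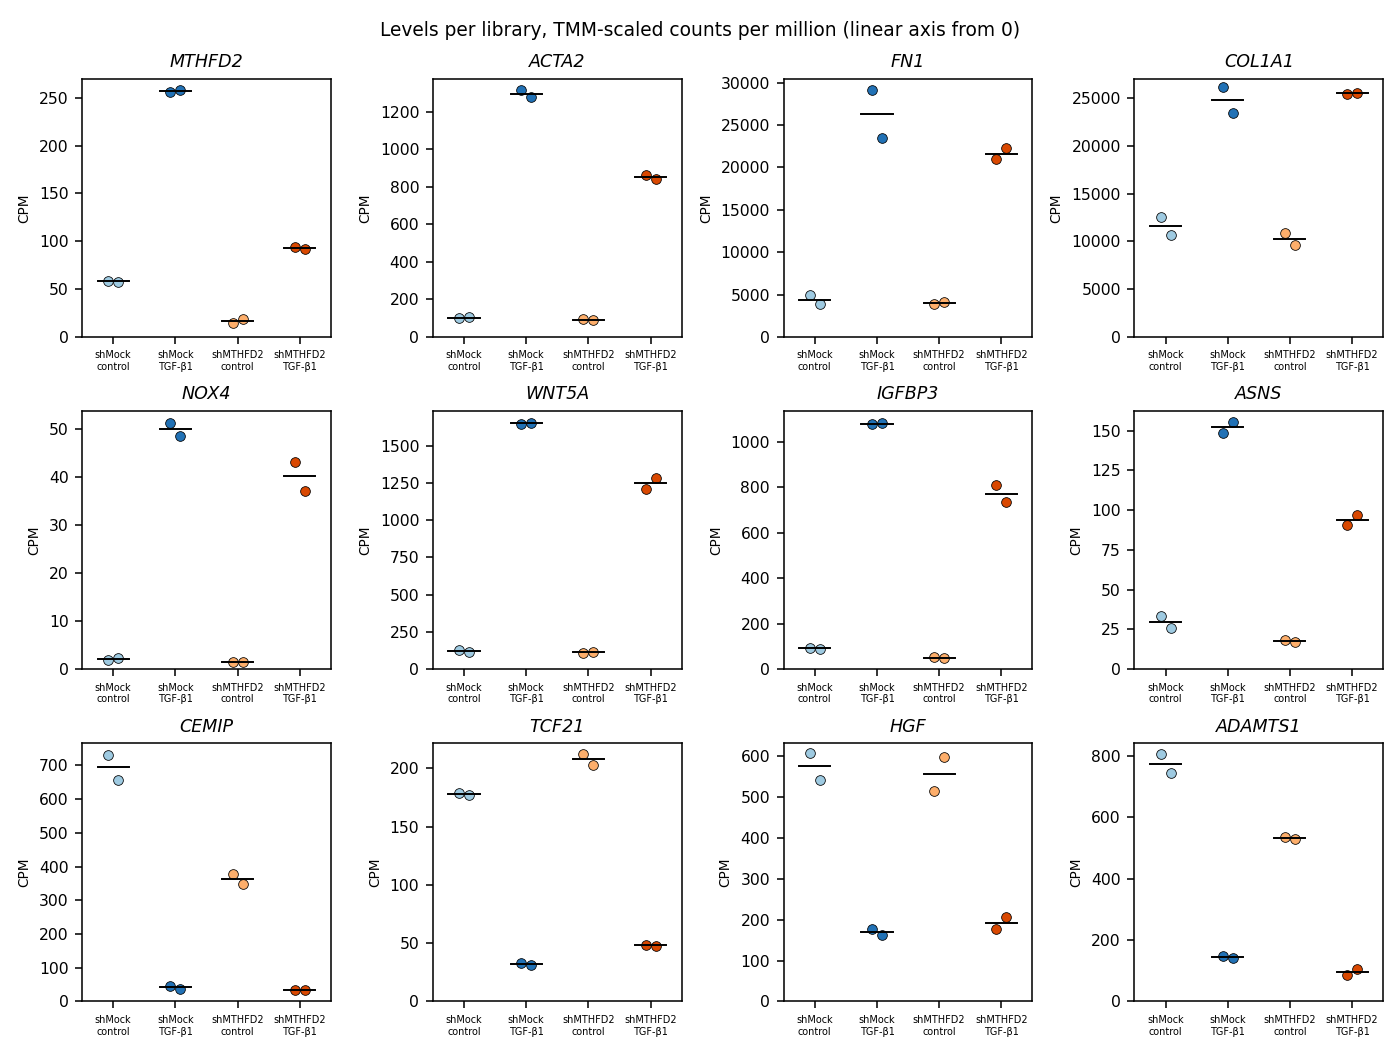
Levels of 12 genes in the 8 libraries, in CPM on TMM-scaled totals with linear axes from 0. Each point is a library and each line the mean of 2. In both lines the TGF-β1 libraries lie apart from the controls in every panel, and MTHFD2 is lower in shMTHFD2 than in shMock at either treatment.

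Within the TGF-β pathway the genes for the ligand, for LTBP1 and LTBP2, and for 3 inhibitors of the signal named here rose. The gene for the signal carrier SMAD3 fell. Of 17 ligands, receptors and activators 9 rose and 3 fell, with a median log2 fold change of 0.34. TGFB1, the ligand itself, went from 86.9 and 73.7 to 217 and 198 CPM (1.37 on the log2 scale, SE 0.10, edgeR adjusted p = 4.3e-08), so that both TGF-β1 libraries lay above both controls. LTBP2, a microfibril protein of the family named latent TGF-β binding proteins, rose from 179 and 170.3 to 958 and 962 CPM. The type I receptor TGFBR1 rose by 0.83 on the log2 scale. The co-receptor TGFBR3 (betaglycan) fell from 42 and 48.4 to 16.2 and 18.4 CPM (-1.38 on the log2 scale, SE 0.13, edgeR adjusted p = 8.6e-07), and LTBP4 fell by 0.62. Of 15 SMADs and feedback inhibitors 5 rose and 2 fell. The inhibitors PMEPA1 (1.95), SMAD7 (1.63), which blocks the receptor, and SKIL (1.04) rose. SMAD3 fell from 74.2 and 73.5 to 29.1 and 29 CPM (-1.35 on the log2 scale, SE 0.09, edgeR adjusted p = 1.1e-08), and SMAD9 of the BMP branch by 1.01. Without shMTHFD2 control 1 the count of risen SMAD genes was 3, as it was with scaling on library totals.

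The genes usually cited as direct TGF-β targets had the largest median of the lists read here, 1.50 against -0.01 over all genes. Of 27 tested (31 listed), 20 rose, 17 of them at least 2-fold, and 3 fell. NOX4, the hydrogen peroxide producing oxidase of myofibroblasts, went from 1.57 and 1.5 to 43.3 and 37.1 CPM (4.70 on the log2 scale, SE 0.16, edgeR adjusted p = 1.9e-11). The protease inhibitor SERPINE2 rose by 2.74, the matrix adaptor TGFBI by 2.14, the cell cycle inhibitor CDKN2B by 2.44, the cytokine IL11 by 2.13 and the matricellular factor CCN2 by 1.50. DACT1 and LRRC15 rose by 2.77 and 2.74. The 3 that fell were the cytokine LIF (from 62.8 and 61.3 to 15.9 and 14.2 CPM) and the transcription factors SNAI2 (-1.40) and ZEB2 (-0.97), while their relatives SNAI1 (1.72) and ZEB1 (0.56) rose. The short SMAD motif CAGAC, searched on both strands, stood within the 250 bases before a start site for 9 of the 20 members with a promoter in the RefSeq table, against 42.8% of all 27305 genes there.

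Activin subunits and activin-binding proteins rose, and the ligands BMP2, BMP4 and GDF6 fell. Of 17 genes tested, 10 rose and 3 fell (median 0.44). INHBA, the activin A subunit, went from 52.7 and 60.6 to 191 and 197 CPM (1.78 on the log2 scale, SE 0.09, edgeR adjusted p = 6.5e-10). INHBE rose from 0.463 and 0.568 to 7.5 and 8.79 CPM, and the activin-binding proteins FSTL3, FST and FSTL1 rose by 1.08, 0.93 and 0.77. BMP2 fell from 38.2 and 35.5 to 10.01 and 10.5 CPM (-1.85 on the log2 scale, SE 0.12, edgeR adjusted p = 1.6e-08), GDF6 by 0.97 and BMP4 by 0.30.

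Most contractile genes rose in the knockdown line. ACTA2, the smooth muscle actin used to define myofibroblasts, stood at 93.9 and 88 CPM in the control libraries and 861 and 843 CPM with TGF-β1 (3.23 on the log2 scale, SE 0.08, edgeR adjusted p = 1.1e-12). The groups did not overlap, which held for 59.6% of all genes tested. TPM1, a tropomyosin, went from 179 and 191 to 1141 and 1082 CPM, and ACTG2, CNN1, CALD1 and TAGLN rose by 1.86, 1.66, 1.59 and 1.39. Of 27 contractile and stress fibre genes tested (30 listed), 20 rose, 7 of them at least 2-fold, and 1 fell (median 0.61). The one that fell was MYLK, the myosin light chain kinase, at 1619 and 1633 CPM in the control libraries and 744 and 713 CPM with TGF-β1 (-1.16 on the log2 scale, SE 0.09, edgeR adjusted p = 8e-08). The fallen count was 2 without shMTHFD2 control 2, without shMock TGF-β1 1 or without shMock TGF-β1 2, and 4 with scaling on library totals. Serum response factor (SRF) is the transcription factor that drives many of these genes, with myocardin family cofactors. SRF rose by 0.55, its cofactors MYOCD (from 8.89 and 10.6 to 53 and 49.8 CPM) and MRTFA (1.20) rose, as did the LIM proteins CSRP2 (2.65) and FHL2 (1.52), and FHL1 fell by 0.83. In all 6 of the 9 rose and 1 fell.

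The upstream sequence of ACTA2 is shown because SRF binds CArG boxes, which are CC, 6 bases of A or T, and GG. It is 250 bases ending just before the second listed start of the gene, GRCh38.p14 chr10:88952774-88953023, minus strand, from RefSeq. Capitals mark CArG-like matches, in which 1 G or C is allowed among the middle 6 bases, at -121 to -112 and -71 to -62 from the start. This relaxed form was chosen after the sequence was seen, and the strict form had no match there.
ACTA2: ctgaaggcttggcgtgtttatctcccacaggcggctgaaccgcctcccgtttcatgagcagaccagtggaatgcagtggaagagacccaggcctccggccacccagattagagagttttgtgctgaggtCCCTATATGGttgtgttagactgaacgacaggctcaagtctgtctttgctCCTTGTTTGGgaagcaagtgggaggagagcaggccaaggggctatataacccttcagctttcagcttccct
The window before the gene's other start held neither form, and for TPM1, the contractile gene with the next highest fold change, none was found. With both strands and all listed starts searched, the strict box was found for 7 of the 24 contractile genes with a promoter in the table (ACTG2, CNN2, MYLK, TPM4, ACTN1, FLNA and SMTN) and for 1.44% of all 27305 genes. The CArG-like form was found for 11 of the 24 and for 8.6% of all genes. Of the 18 risen genes with a promoter, 6 held the strict box, and MYLK, which fell, holds one too.

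**Figure D2:**
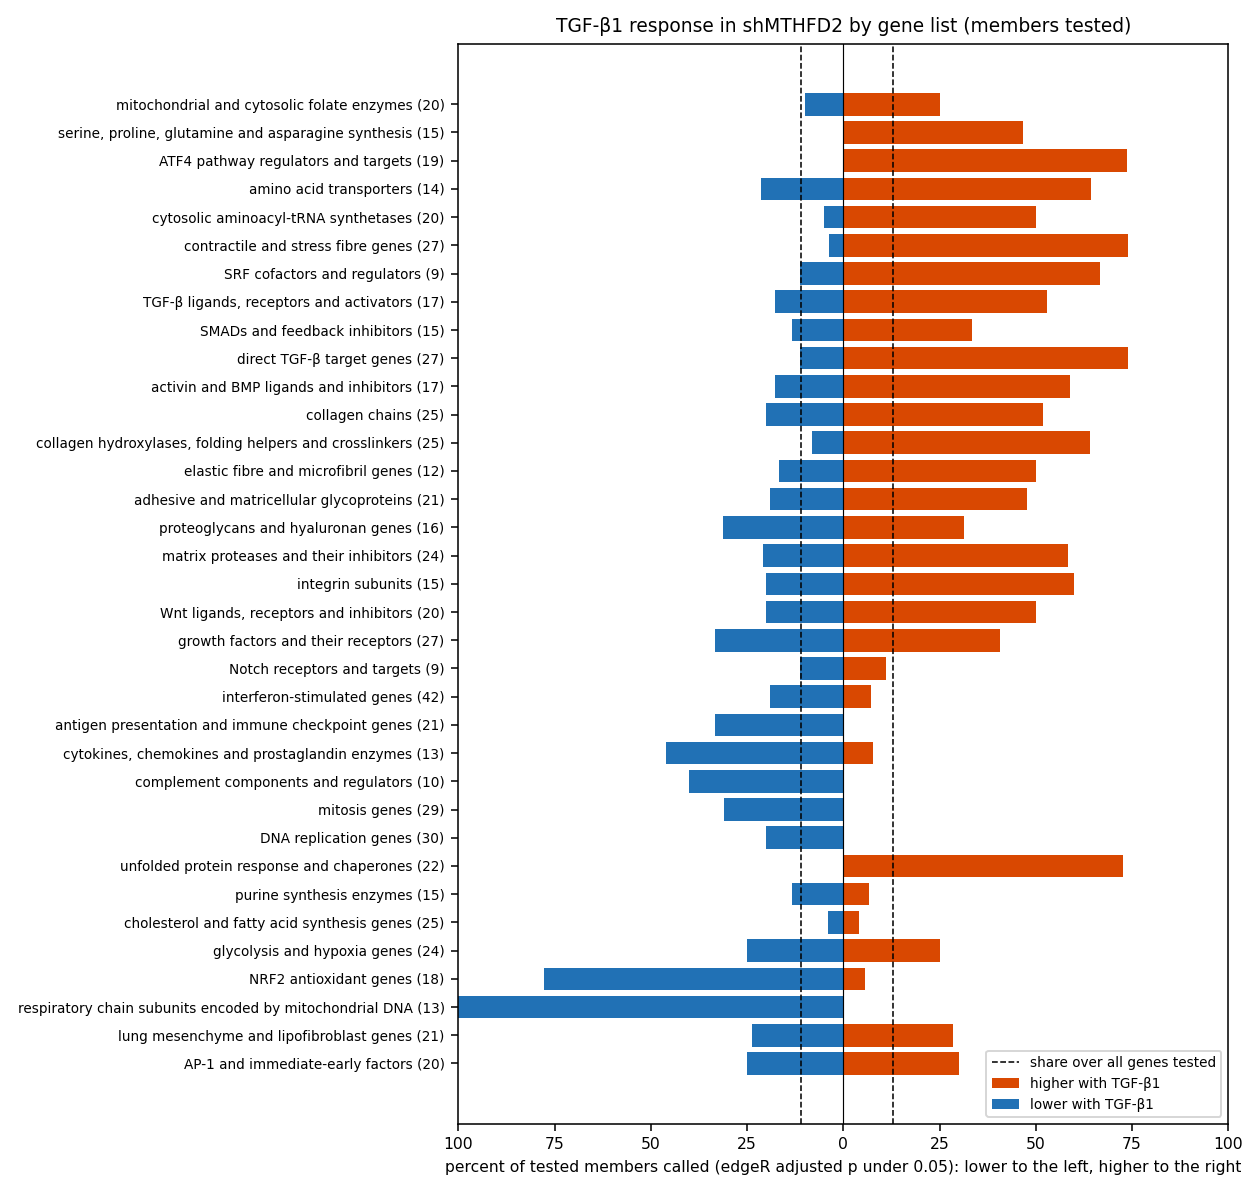
Share of the tested members of each gene list called higher (right) or lower (left) with TGF-β1 in shMTHFD2, with the number tested in parentheses. Dashed lines mark 12.8% higher and 11% lower, the shares over all 13493 genes. Direct TGF-β targets, contractile, ATF4 and unfolded protein response genes reach furthest right, and NRF2 genes and mRNAs of mitochondrial DNA furthest left.

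Most of the called collagen genes rose. COL1A1, the main fibrillar chain, stood at 10841 and 9624 CPM in the control libraries and 25455 and 25546 CPM with TGF-β1 (1.32 on the log2 scale, SE 0.10, edgeR adjusted p = 1.4e-07), and its partner COL1A2 rose by 0.58. COL5A1 (1.81), COL8A1 (1.74) and the basement membrane pair COL4A1 (1.69) and COL4A2 (1.02) rose as well. COL10A1 went from 0.0463 and 0.155 to 1.48 and 1.98 CPM, with controls near the floor of 3 counts a library, so that it passed the filter through its TGF-β1 libraries. Of 25 collagens tested, 13 rose and 5 fell (median 0.53). COL4A5 fell from 218 and 226 to 106 and 112 CPM (-1.03 on the log2 scale, SE 0.08, edgeR adjusted p = 1.3e-07), and COL13A1, COL14A1 and COL6A1 by 0.93, 0.60 and 0.40. Without shMTHFD2 control 1 the fallen count was 3.

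Of 25 hydroxylases, folding helpers and crosslinkers of collagen, 16 rose and 2 fell (median 0.57). PLOD2, the lysyl hydroxylase of telopeptides, went from 124 and 135 to 347 and 368 CPM (1.46 on the log2 scale, SE 0.09, edgeR adjusted p = 6.3e-09). The prolyl hydroxylase subunits P4HA3, P4HA2 and P4HA1 rose by 1.69, 1.02 and 0.71, the collagen chaperone SERPINH1 by 1.01, and the crosslinking oxidases LOX and LOXL2 by 1.07 and 0.96. The transglutaminase TGM2 fell by 0.75 and the hydroxylase P3H2 by 0.49. The fallen count was 1 without shMTHFD2 TGF-β1 2 or without shMTHFD2 control 2, and 4 with scaling on library totals.

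Elastin and fibronectin transcripts were higher with TGF-β1. ELN, elastin, was at 0.37 and 0.103 CPM in the control libraries and 44.4 and 34.9 CPM with TGF-β1. It passed the filter only through TGF-β1 libraries and had to differ, and no fold is given because 1 control lay below the floor of 3 counts. FN1, fibronectin, went from 3857 and 4092 to 21028 and 22264 CPM (2.45 on the log2 scale, SE 0.12, edgeR adjusted p = 9.1e-10), the largest rise in CPM of any gene that passed the test without overlap, a ranking that favours long and abundant transcripts. COL1A1, TGFBI, COL1A2, SERPINE2, COL4A1, MMP2 and SPARC followed it in CPM. Of 12 elastic fibre genes 6 rose and 2 fell (median 0.56), with the microfibril gene MFAP2 at 2.42 and FBN1 at 0.77 higher, and FBN2 (-0.72) and EFEMP1 (-0.71) lower. Of 21 adhesive and matricellular glycoproteins 10 rose and 4 fell (median 0.19). TNC, tenascin C, went from 96.4 and 112 to 672 and 682 CPM, and SPARC, POSTN and THBS1 rose by 1.38, 1.28 and 0.82. CCN3 (-1.13), LAMA2 (-0.65) and TNXB (-1.24) fell.

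Proteoglycan and hyaluronan genes changed in both directions, or were not called. The synthase HAS2 rose from 0.509 and 1.14 to 8.27 and 9.15 CPM, and CEMIP, which depolymerises hyaluronan, fell from 378 and 348 to 34.5 and 33.9 CPM (-3.41 on the log2 scale, SE 0.11, edgeR adjusted p = 8.6e-12). VCAN, the hyaluronan-binding proteoglycan versican, rose from 75.7 and 89.8 to 788 and 866 CPM (3.32 on the log2 scale, SE 0.12, edgeR adjusted p = 2.7e-11). XYLT1, which starts glycosaminoglycan chains, and BGN rose by 2.96 and 1.72, and the syndecans SDC4 and SDC1 fell by 0.82 and 0.55. Of the other hyaluronan genes tested, the synthase HAS3 (0.59) and the hyaluronidase HYAL2 (-0.13) were not called. In all, 5 of 16 proteoglycan and hyaluronan genes tested (25 listed) rose, 5 fell and 6 were not called, with a median of 0.06, and the fallen count was 3 without shMTHFD2 TGF-β1 1, shMTHFD2 TGF-β1 2 or shMTHFD2 control 1.

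Of 24 matrix proteases and inhibitors 14 rose and 5 fell (median 0.37). ADAM12, ADAM19 and ADAMTS6 rose by 3.98, 3.20 and 3.19, and MMP2, a gelatinase, went from 2914 and 2588 to 5163 and 5108 CPM. ADAMTS1, a protease that cleaves versican, fell from 536 and 530.2 to 85.8 and 106 CPM (-2.47 on the log2 scale, SE 0.10, edgeR adjusted p = 8e-11), and the plasminogen activators PLAU and PLAT fell by 1.42 and 1.27. With scaling on library totals 8 fell. Among 15 integrin subunits 9 rose and 3 fell (median 0.46). ITGA1, a collagen-binding subunit, went from 119 and 129 to 866 and 892 CPM, ITGB3 rose by 2.63 and the collagen receptor ITGA11 by 0.82, whereas ITGA8 (from 68 and 73.3 to 18.6 and 19.5 CPM) and ITGA6 (-0.81) fell.

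Transcripts of the secreted signals IGF1 and WNT11 were at or near 0 in the controls and were detected with TGF-β1. IGF1, insulin-like growth factor 1, had 0 counts in the shMTHFD2 controls and 184 with TGF-β1 (5.05 and 4.32 CPM), at least 64-fold higher against a floor of 3 counts over the group. WNT11 had 1 count against 200, a ratio of 209 (exact binomial 95% interval 37 to 8280, counting error only). Both passed the filter only through their TGF-β1 libraries and had to differ. WNT5A, a non-canonical Wnt ligand, rose from 108 and 117 to 1210 and 1283 CPM (3.48 on the log2 scale, SE 0.09, edgeR adjusted p = 1.1e-12), and the Wnt receptor FZD8 from 3.01 and 2.12 to 77.1 and 77.1 CPM. Of 20 Wnt genes tested (26 listed), 10 rose and 4 fell (median 0.26). The inhibitor SFRP1 fell from 58.5 and 60.5 to 15.3 and 18.8 CPM, and AXIN2 and LEF1, genes that respond to canonical Wnt signals, fell by 1.47 and 1.02.

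Among 27 growth factors and receptors 11 rose and 9 fell (median 0.07). IGFBP3, which binds insulin-like growth factors, went from 51.4 and 48.2 to 809 and 737 CPM (3.96 on the log2 scale, SE 0.09, edgeR adjusted p = 4.2e-13). EDN1, the precursor of the peptide endothelin, rose from 1.44 and 1.55 to 12.6 and 14.6 CPM, and PDGFB and IGF2 rose by 2.19 and 1.03. HGF, the epithelial growth factor of mesenchyme, fell from 516 and 598 to 177 and 207 CPM (-1.54 on the log2 scale, SE 0.10, edgeR adjusted p = 2e-08), and VEGFC, FGF7 and the endothelin receptor EDNRA fell by 0.78, 0.54 and 0.77. The other receptor, EDNRB, rose by 2.03.

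The other genes at the top of the response by fold change were RASGRP3, an activator of RAS and RAP (from 3.15 and 2.79 to 144 and 128 CPM), the galactosyltransferase B3GALT1 (from 0.88 and 0.31 to 25 and 25 CPM), the LIM protein LMCD1 (5.22), the smooth muscle long non-coding RNA CARMN (from 0.37 and 0.0517 to 5.82 and 7.57 CPM), the potassium channel KCNH1 (4.55) and PROC, protein C (from 0.185 and 0.0517 to 2.86 and 1.52 CPM). CARMN and PROC each had a control library below the floor of 3 counts, so no fold is given for them. B3GALT1, CARMN and PROC averaged under 1 CPM over the control libraries and passed the filter only through TGF-β1 libraries, as did INHBE and HAS2. ZPLD1 had 2 counts in the controls and 82 with TGF-β1, a ratio of 42.8 (exact binomial 95% interval 11.5 to 359), and passed the filter only through the latter. At the bottom stood ADH1B, an alcohol dehydrogenase (from 37.1 and 36.3 to 1.99 and 2.24 CPM), SLC7A14 (-4.11), the protease inhibitor SERPINB2 (-3.75), RASL11A (-3.73), the fatty acid receptor CD36 (-3.52), CEMIP, PLXNC1 (-3.40), GRIK4 (-3.12), the carbonic anhydrase CA12 (-3.08), ADAMTS19 (-2.97) and the urea transporter SLC14A1 (-2.73). Of these CD36, PLXNC1, RASL11A, ADAMTS19 and SLC14A1 averaged under 1 CPM over the TGF-β1 libraries, so they passed the filter through their controls and their folds are imprecise. A gene ID with the symbol MKKS (ENSG00000285508, 882 exon bases) had 85 counts in the controls and 0 with TGF-β1, at least 27.2-fold lower. It passed the filter only through control libraries and had to differ. However, 2 genes on the same strand overlap it and its counts are uncertain for that reason. The values are those of this ID alone and do not show that MKKS as a whole fell.

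Of the genes for amino acid synthesis and folate metabolism, a part rose in the knockdown line, where over all genes tested 12.8% rose and 11% fell. ASNS, asparagine synthetase, stood at 18.3 and 17.1 CPM in the control libraries and 90.5 and 96.9 CPM with TGF-β1 (2.40 on the log2 scale, SE 0.11, edgeR adjusted p = 4.2e-10). The serine pathway enzymes PHGDH, PSAT1 and PSPH rose by 1.58, 2.02 and 0.89, and the proline enzymes ALDH18A1 and PYCR1 by 1.42 and 1.71. Of 15 genes for serine, proline, glutamine and asparagine synthesis 7 rose and none fell (median 0.33), although 2 fell with scaling on library totals. Of 20 folate enzymes and carriers (24 listed) 5 rose and 2 fell, with a median of -0.06. The 5 were MTHFD2 and 4 further mitochondrial members, ALDH1L2 (from 46.7 and 50.7 to 176 and 182 CPM), SHMT2 (from 109 and 103 to 224 and 214 CPM), MTHFD1L (0.81) and the folate carrier SLC25A32 (0.72). GCSH of the glycine cleavage system (-0.47) was among those that fell. The fallen count was 1 without shMTHFD2 TGF-β1 2 or shMTHFD2 control 1, and 4 with scaling on library totals.

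ATF4 is the transcription factor of the amino acid and integrated stress response. Of 19 regulators and targets 14 rose and none fell (median 0.81), with 1 fallen without shMTHFD2 TGF-β1 1 and 2 with scaling on library totals. ATF4 itself rose by 0.69, CEBPG, its binding partner, went from 19.7 and 21.1 to 51.7 and 51.9 CPM, and EIF4EBP1 and CHAC1 rose by 1.51 and 1.33. Of 14 amino acid transporters 9 rose and 3 fell. SLC7A1 for arginine went from 23.1 and 25.9 to 102 and 97.5 CPM, and SLC38A5, SLC1A4 and SLC7A5 rose by 2.55, 2.38 and 1.66. The cystine carrier SLC7A11 fell from 382 and 429.5 to 179 and 173 CPM (-1.21 on the log2 scale, SE 0.10, edgeR adjusted p = 1.3e-07), SLC7A2 by 1.17 and the glutamine carrier SLC1A5 by 0.39. Of 20 cytosolic aminoacyl-tRNA synthetases 10 rose, GARS1 for glycine most (1.21), and 1 fell, a count of 0 without shMTHFD2 TGF-β1 2.

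The upstream window of ASNS is shown for the ATF4 type of motif. It runs over GRCh38.p14 chr7:97872409-97872658, minus strand, 250 bases before the first listed start in RefSeq, and capitals mark the match to TGATGNAA at -68 to -61.
ASNS: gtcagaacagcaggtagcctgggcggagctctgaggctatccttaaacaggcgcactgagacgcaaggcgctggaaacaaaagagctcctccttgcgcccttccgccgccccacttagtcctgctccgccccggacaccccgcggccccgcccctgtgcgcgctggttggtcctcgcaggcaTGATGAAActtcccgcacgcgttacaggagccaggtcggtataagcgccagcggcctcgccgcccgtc
PSAT1, which followed ASNS in fold change, had no match. With both strands and all listed starts searched, the motif was found for 2 of 9 serine, proline, glutamine and asparagine genes with a promoter in the table, 4 of 17 ATF4 genes (CHAC1, CEBPG, ATF3 and JDP2), 3 of 16 tRNA synthetases (AARS1, GARS1 and IARS1) and 1 of 11 transporters. It was found for 3.89% of all 27305 genes. Of the risen members with a promoter, 1 of 4 synthesis genes, 4 of 12 ATF4 genes, 3 of 8 synthetases and 0 of 9 transporters held it. The synthesis genes with a match were ASNS, which rose, and GOT1, which was not called. The transporter with a match was SLC1A5, which fell. A match describes the letters and is not a measured binding site.

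The unfolded protein response enlarges the secretory pathway. Of its 22 genes tested 16 rose, none fell and 6 were not called (median 0.46). CREB3L2, a membrane-bound factor of the Golgi pathway, went from 67 and 63.1 to 281 and 298 CPM (2.15 on the log2 scale, SE 0.10, edgeR adjusted p = 4.1e-10), XBP1 from 38.9 and 41.6 to 108 and 120.4 CPM, and the chaperones HYOU1, HSPA5 and HSP90B1 rose by 0.92, 0.83 and 0.57.

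All 13 mRNAs encoded by mitochondrial DNA fell in the knockdown line, with a median of -0.72 and a range of -0.64 to -0.81 (edgeR adjusted p = 0.000591 to 0.0353). MT-CO1, a catalytic subunit of cytochrome oxidase, stood at 17031 and 20098 CPM in the control libraries and 11350 and 11406 CPM with TGF-β1 (-0.71 on the log2 scale, SE 0.14, edgeR adjusted p = 0.0013). MT-ND4 of complex I went from 7440 and 9388 to 4854 and 5045 CPM and MT-ATP6 of ATP synthase from 3912 and 5333 to 2599 and 2766 CPM. Mitochondrial transcripts, the ribosomal MT-RNR2 included, were 7 of the 8 largest falls in CPM, and FTL was the other. The 13 mRNAs took 5.68 and 7.04% of all counts in the 2 control libraries and 3.51 and 3.63% with TGF-β1, so the groups did not overlap. They are processed from shared long transcripts and are not independent observations. Without shMTHFD2 control 2, in which they were highest, 10 of 13 fell with a median of -0.55, 12 fell without shMTHFD2 TGF-β1 1, 12 without shMTHFD2 TGF-β1 2, and DESeq2 called 11.

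In shMock none of the 13 was called and their median was 0.15. There they took 5 and 3.53% of counts in the controls and 4.03 and 4.21% with TGF-β1, so the control libraries lay on either side of the treated ones. The interaction, which is the response in shMTHFD2 minus that in shMock, had a median of -0.86 over the 13 and called none of them (lowest edgeR adjusted p = 0.1). It called 11 without shMTHFD2 control 1, 12 without shMock control 1 and 13 with no filter on low counts. Nuclear-encoded subunits of the respiratory chain and ATP synthase, a list added after these values were seen, had 1 higher and 2 lower of 80 and a median of -0.03 in shMTHFD2, beside 1 higher and 21 lower and a median of -0.17 in shMock.

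**Figure D3:**
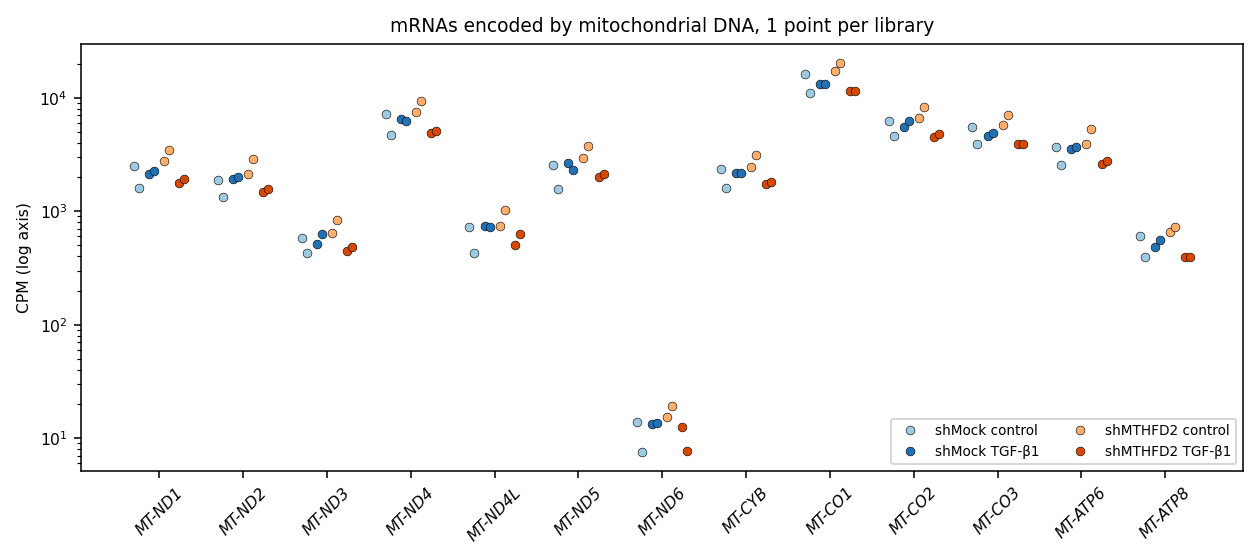
Levels of the 13 mRNAs encoded by mitochondrial DNA, 1 point per library, in CPM on a log axis. For each transcript both shMTHFD2 TGF-β1 points lie below both shMTHFD2 control points, while the 2 shMock controls lie apart from each other.

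Most antioxidant genes under the transcription factor NRF2 fell, where over all genes tested 12.8% rose and 11% fell. Of 18 tested 14 fell and 1 rose (median -0.64). The quinone reductase NQO1 went from 287 and 245 to 118 and 93.3 CPM (-1.33 on the log2 scale, SE 0.11, edgeR adjusted p = 2.4e-07). AKR1C1, which has close paralogs, fell from 131 and 134 to 34.2 and 36.8 CPM, OSGIN1 by 1.69, the thioredoxin reductase TXNRD1 by 1.14, and the ferritin chains FTL and FTH1 by 0.64 and 0.47. The risen gene was GCLC (from 126 and 125 to 198 and 206 CPM), the catalytic subunit of glutathione synthesis, whose partner GCLM fell by 0.64. Of 24 glycolysis and hypoxia genes 6 rose and 6 fell (median -0.10), with PFKFB3, which makes an activator of glycolysis, going from 109 and 97.1 to 281 and 245 CPM and CA12 going from 50.7 and 48.3 to 5.57 and 6.1 CPM. The fallen count there was 3 without shMTHFD2 TGF-β1 1 and 11 with scaling on library totals.

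Genes of the lung mesenchyme and of lipid-storing fibroblasts changed in both directions. Of 21 tested (29 listed) 6 rose and 5 fell, with a median of -0.22. TCF21, a transcription factor of those cells, went from 212 and 203 to 48.6 and 47.7 CPM (-2.11 on the log2 scale, SE 0.08, edgeR adjusted p = 3.8e-11), PPARG, the lipid regulator, from 31.6 and 33 to 12.3 and 15.8 CPM, and ADH1B to 1.99 and 2.24 CPM. The Hedgehog target GLI1 rose from 2.78 and 2.22 to 9.6 and 8.23 CPM and its partner PTCH1 by 0.83. The risen count was 3 without shMTHFD2 control 2 and with scaling on library totals, which also gave 9 fallen.

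Called genes of the immune lists were mostly lower. Over all genes tested 12.8% rose and 11% fell. Of 42 interferon-stimulated genes 3 rose, 8 fell and 31 were not called (median -0.13), a called share near the 23.8% over all genes. GBP1 at 0.96 and USP18 at 0.60 were higher. GBP2 (from 68 and 69.5 to 35.9 and 38.2 CPM) and IFIT1 (from 394 and 397 to 280.4 and 297 CPM) were lower. The fallen count was 5 without shMTHFD2 TGF-β1 1 and 13 with scaling on library totals. Of 21 antigen presentation and checkpoint genes none rose and 7 fell, among them NT5E (-0.68) and TNFRSF14 (-0.90), and 4 fell without shMTHFD2 TGF-β1 2. Only 13 of 30 listed cytokines, chemokines and prostaglandin enzymes reached the level for testing, of which 6 fell and 1 rose (median -0.80). The long pentraxin PTX3 fell from 81.7 and 82.3 to 23.9 and 24.4 CPM (-1.76 on the log2 scale, SE 0.08, edgeR adjusted p = 4.2e-10), the prostaglandin synthase PTGES from 14.7 and 13.1 to 3.98 and 2.9 CPM, PTGS2 by 1.76 and the monocyte chemokine CCL2 from 1.76 and 1.86 to 0.46 and 0.152 CPM. CCL2 averaged under 1 CPM over the TGF-β1 libraries, so it passed the filter only through control libraries and its fold is imprecise. The risen gene, PTGS1 (0.31), was not called without shMTHFD2 TGF-β1 2 or control 1 or with scaling on library totals.

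Proliferation genes that passed the test were all lower with TGF-β1, where over all genes tested 12.8% rose and 11% fell. Of 29 mitosis genes 9 fell and none rose (median -0.70), and of 30 DNA replication genes 6 fell and none rose (median -0.28). For replication the called share was near the 23.8% over all genes. TPX2, a spindle assembly factor, went from 18.5 and 18.5 to 7.1 and 9 CPM (-1.20 on the log2 scale, SE 0.15, edgeR adjusted p = 2.4e-05), and MKI67, TOP2A and the nucleotide reductase subunit RRM2 fell by 0.87, 0.91 and 1.37. The mitosis count was 4 without shMTHFD2 control 2, 5 without shMock control 2, 5 with DESeq2, 5 with the 4 shMTHFD2 libraries alone and 14 with scaling on library totals. For replication, 1 member rose without shMock TGF-β1 1, without shMock TGF-β1 2, with the 4 libraries alone or with no filter.

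Set beside the response of shMock, which uses no library in common, the response of shMTHFD2 ran in the same direction for most called genes. In shMock 4776 genes were called (35.4%), 2333 higher (17.3%) and 2443 lower (18.1%). Of the genes that rose in shMTHFD2, 1392 also rose in shMock, which is 80.7% of the shMTHFD2 calls and 59.7% of the shMock calls. Of those that fell 1169 were shared, 78.5% of the shMTHFD2 and 47.9% of the shMock calls, and 4 genes were called in opposite directions. Across the 13493 genes, which are not independent replicates, the 2 sets of fold changes correlated at Pearson 0.75 and Spearman 0.693, with a slope of 0.7 for shMTHFD2 on shMock. Genes called higher in shMock had a median of 0.54 there and 0.40 in shMTHFD2. Genes called higher in shMTHFD2 had a median of 0.58 there and 0.59 in shMock. For genes called lower in shMock the median was -0.57 there and -0.35 in shMTHFD2. For genes called lower in shMTHFD2 it was -0.63 there and -0.67 in shMock. In each pair the larger median change was that of shMock, and the size of the gap depends on which line chose the genes.

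**Figure D4:**
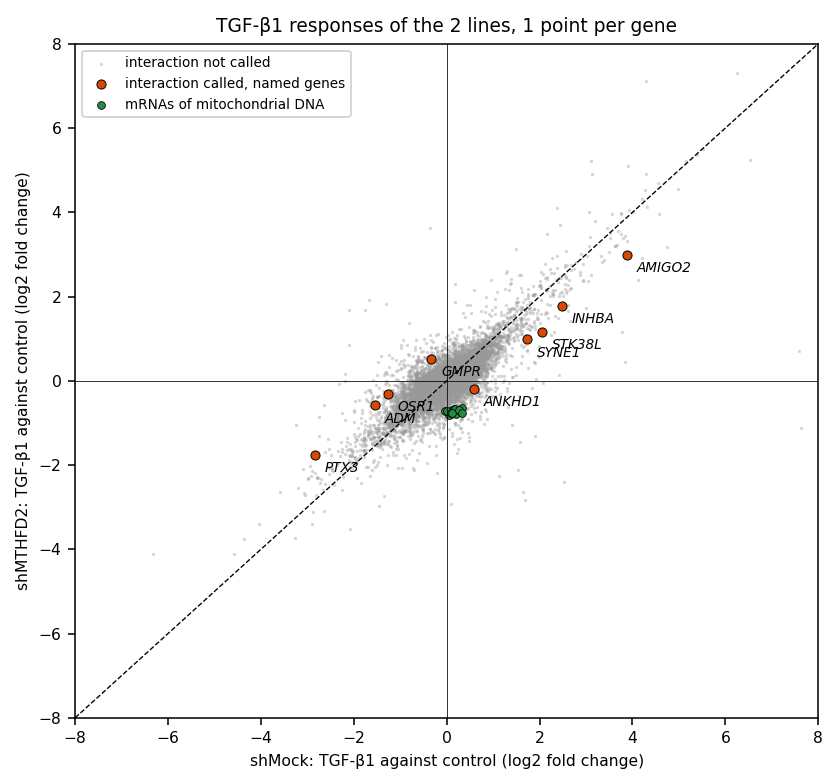
Log2 fold change of each gene with TGF-β1 in shMock (horizontal) and in shMTHFD2 (vertical), with the dashed line where both are equal. Orange points are the 9 named genes with a called interaction and green points the 13 mRNAs of mitochondrial DNA, which lie between -0.04 and 0.34 in shMock and below 0 in shMTHFD2. The 8 genes beyond 8 log2 units are not drawn.

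The test of the difference itself, the interaction, called 12 of 13493 genes (0.0889%), 5 with the higher response in shMTHFD2 (0.0371%) and 7 with the lower (0.0519%). At an unadjusted p under 0.05 there were 1718, and DESeq2 called 105. Leaving out single libraries gave between 3 genes (without shMTHFD2 control 2 or shMock TGF-β1 1) and 185 (without shMTHFD2 control 1), with 4 without shMock control 2 and 42 without shMock control 1, so the count rests on single libraries. A gene it did not call is not shown to respond alike in the lines.

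PTX3, called in each fit without 1 library, went from 81.7 and 82.3 to 23.9 and 24.4 CPM in shMTHFD2 and stood at 166 and 162 CPM in the control libraries and 22.3 and 23.7 CPM with TGF-β1 in shMock (interaction 1.07, SE 0.12, edgeR adjusted p = 0.0014). The TGF-β1 libraries of the lines reached about the same level, and the control libraries of shMTHFD2 lay below those of shMock. ADM, the vasodilator peptide adrenomedullin, had the same form, from 164 and 127 to 99.8 and 94.9 CPM in shMTHFD2 against 261 and 266 CPM in the control libraries and 85.2 and 94.9 CPM with TGF-β1 in shMock (interaction 0.97, SE 0.15, edgeR adjusted p = 0.031). The transcription factor OSR1 fell less in shMTHFD2 (interaction 0.95, SE 0.16, edgeR adjusted p = 0.0328), from 39.3 and 37.3 to 15.1 and 16.9 CPM in shMock and from 45.4 and 41.4 to 37.2 and 32.7 CPM in shMTHFD2. GMPR, a GMP reductase, rose in shMTHFD2 by 0.52 and fell in shMock by 0.33 (interaction 0.85, SE 0.14, edgeR adjusted p = 0.0328). Its controls stood at 24.4 and 25 CPM in shMTHFD2 and 43.8 and 47.8 CPM in shMock, and with TGF-β1 all 4 libraries lay between 34.9 and 38 CPM.

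INHBA was the member of the TGF-β family among them. It rose to 191 and 197 CPM in shMTHFD2 and to 364 and 363 CPM in shMock from controls of 52.7 to 67.9 CPM in both lines (interaction -0.71, SE 0.12, edgeR adjusted p = 0.0414). AMIGO2, an adhesion protein, reached 163 and 172 CPM against 285.5 and 301.5 CPM (interaction -0.89, SE 0.14, edgeR adjusted p = 0.031), the nuclear envelope protein SYNE1 201 and 208 against 306 and 291.5 CPM (interaction -0.75, SE 0.12, edgeR adjusted p = 0.0328) and the kinase STK38L 79.95 and 71.4 against 93.5 and 100.8 CPM (interaction -0.89, SE 0.15, edgeR adjusted p = 0.0328). For these 4 the TGF-β1 libraries of shMTHFD2 lay below those of shMock. The controls of STK38L stood at 30.4 and 37.4 CPM in shMTHFD2, above the 23.9 and 22.8 CPM of shMock. SYNE1 controls also lay higher in shMTHFD2 (97.7 and 108.6 against 96.1 and 83.3 CPM), those of INHBA lay lower, and those of AMIGO2 overlapped (18.9 and 23.4 against 20.6 and 19.1 CPM). ANKHD1 was not called in shMTHFD2 (-0.19) and rose in shMock by 0.58 (interaction -0.77, SE 0.12, edgeR adjusted p = 0.031), and genes on both strands overlap it. Its controls stood at 65.1 and 65.6 CPM in shMTHFD2 and 38.5 and 40.2 CPM in shMock, whereas its TGF-β1 libraries overlapped between the lines (54 and 60.5 against 59.8 and 58.1 CPM). The 3 other called IDs have no symbol. Apart from PTX3 each of these named genes lost its call in 4 to 7 of the alternatives, with edgeR adjusted p between 0.0507 and 0.238.

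**Figure D5:**
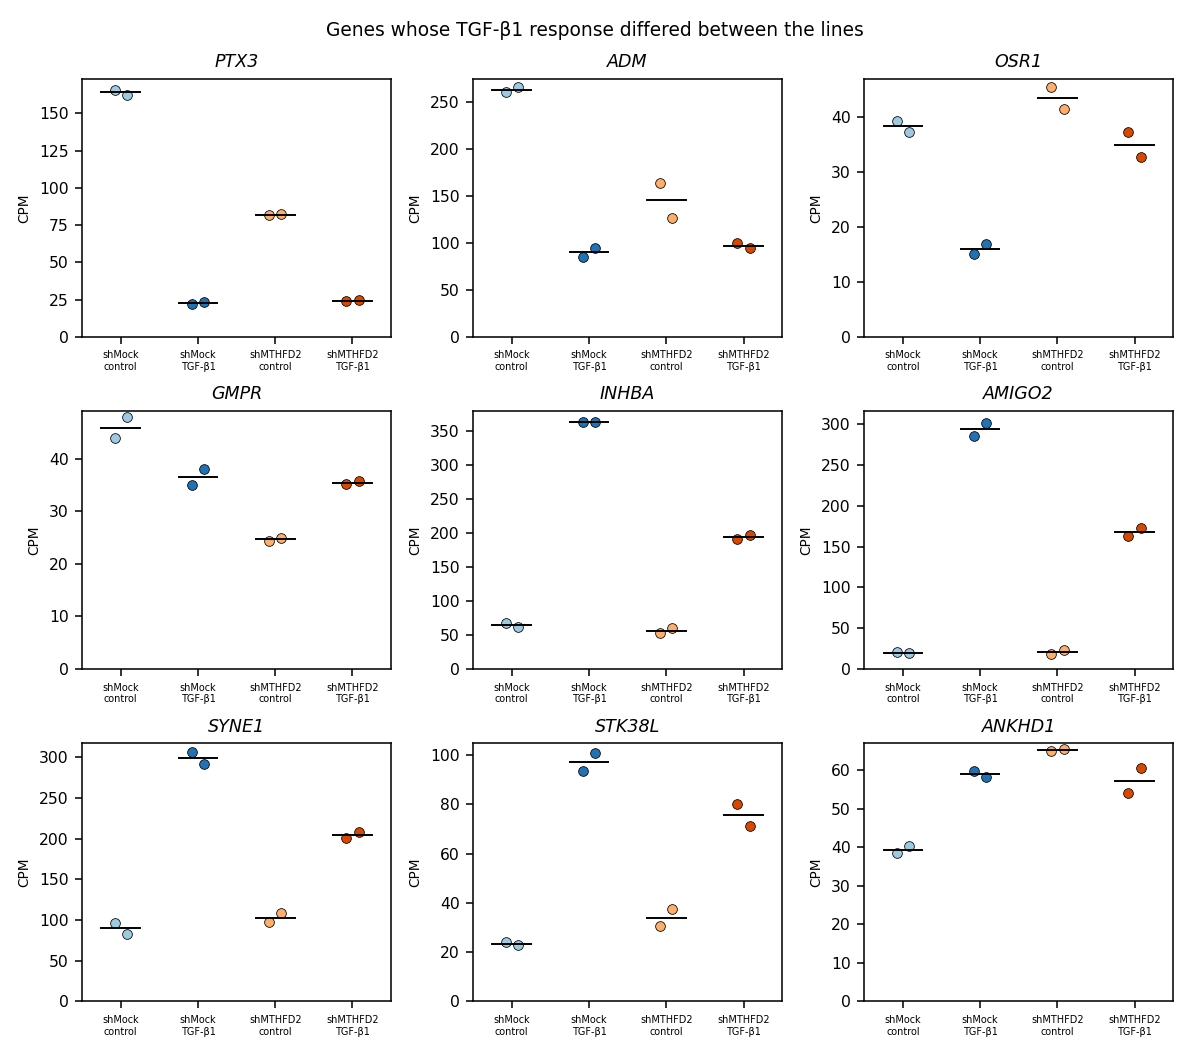
Levels of the 9 named genes with a called interaction, in CPM on linear axes from 0, 1 point per library and the mean as a line. For INHBA, AMIGO2, SYNE1 and STK38L the shMTHFD2 TGF-β1 points lie below the shMock TGF-β1 points. Control points of shMTHFD2 lie below those of shMock for PTX3, ADM, GMPR and INHBA. They lie above those of shMock for OSR1, ANKHD1, STK38L and SYNE1.

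Some calls of genes named above in the shMTHFD2 response rest on single libraries. Without shMTHFD2 TGF-β1 1, GCSH and BMP4 were among 11 genes that were no longer called (range of edgeR adjusted p 0.0545 to 0.349). When shMTHFD2 TGF-β1 2 was left out there were 20 (0.05 to 0.301), with GCSH, BMP4, P3H2, TNXB, PTGS1 and OSR1 among those named. Without shMTHFD2 control 1 there were 16 (edgeR adjusted p = 0.0543 to 0.245), which include GCSH, SLC1A5, BMP4, TNXB, PTGS1 and OSR1. Without shMTHFD2 control 2 there were 12 (edgeR adjusted p = 0.0582 to 0.36), with GCSH, BMP4, P3H2 and PTGS1. The shMock libraries enter this response through the shared estimate of spread and through the TMM factors. Among the genes named, leaving out either shMock control ended the calls of OSR1, of LUM and of ATIC, which is named below. Their log2 fold changes were -0.31, -0.22 and -0.29 in each of these fits.

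Exons of CARMN, FZD8, KCNH1, MKKS, ADH1B, SERPINB2, MMP2, MT-ND4, MT-ATP6, GCSH, ASNS, PYCR1, DACT1, TNXB, ITGA1, ITGB3, AXIN2, GBP2, RRM2, GCLC, OSGIN1, FSTL1, HSP90B1, IGF2, LOXL2, SLC25A32, CD68 and ANKHD1 overlap a gene on the same strand, and their counts may have been shared with it. MTHFD2, IGF1, WNT11, ELN, RASGRP3, ACTA2, TPM1, MYLK, MYOCD, TGFB1, LTBP2, SMAD3, TNC, VCAN, HAS2, CEMIP, ITGA6, LEF1, SHMT2, ALDH1L2, SLC7A11, NQO1, TCF21 and PTX3 are among those that overlap a gene on the opposite strand, which matters if strand was not used. The smooth muscle actins and the mitochondrial genes have near-identical sequence elsewhere in the genome.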

How the data were processed

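RNA of 8 MRC5 libraries was measured. The deposited table holds whole-number counts for 60666 gene IDs, although its name speaks of FPKM, and no normalisation shows in the values. Per the submitters' processing notes, STAR 2.7.1a, DESeq2 1.32.0 and GRCh38 were used, with no roles stated. Counter, annotation and strand use: not given in the sources used here. Symbols were found for 60437 IDs, and GENCODE 29 positions for 58420.

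The 13493 genes whose mean CPM over the 8 libraries reached 1 were tested with edgeR 4.0.16 in R 4.3.3, by quasi-likelihood with TMM factors (0.914 to 1.07), in 1 fit with a mean per group and 4 residual degrees of freedom. The common biological coefficient of variation was 8.79%. Adjusted p-values are Benjamini-Hochberg over all genes tested, with a threshold of 0.05. The response is TGF-β1 against control in shMTHFD2, and the interaction subtracts that of shMock. Each SE is approximate, the fold change divided by the root of F. CPM use TMM-scaled totals. The floor of 3 counts is 0.135 to 0.165 CPM on library totals without TMM scaling. Intervals and floors cover counting error only. Replicates of a group differed by more than counting error (chi-square per degree of freedom 6.47 to 11.2). The script was tested on simulated data.

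Alternatives were DESeq2 1.42.0, library totals, median-of-ratios factors, no filter, the 4 shMTHFD2 libraries alone, a replicate block and each library left out. The genes and lists were chosen with earlier results of these data known. Genes named are MTHFD2, the 12 highest and 12 lowest fold changes and 8 largest rises and falls in CPM among called genes whose groups do not overlap (of all tested genes 59.6% do not), up to 3 called members of each list each way, or the 2 most abundant where none was called, and called interaction genes. Pseudogenes, antisense and clone names and IDs lacking a symbol were skipped, and further list members are named for their role, chosen after their values were seen. Some genes that the rule selects are not reported here. Promoters are from RefSeq, GRCh38.p14.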

Additional observations from a re-analysis of the deposited data

Results flagged for a closer look

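For 9 named genes the edgeR test of the difference between the responses of the 2 lines passed the threshold, and these are the results to look at again. The response in shMTHFD2 minus that in shMock was 1.07 for PTX3, with a fall of 1.76 in shMTHFD2 and 2.83 in shMock on the log2 scale. It was 0.97 for ADM, 0.95 for OSR1 and 0.85 for GMPR. The difference was -0.89 for STK38L, -0.89 for AMIGO2, -0.77 for ANKHD1, -0.75 for SYNE1 and -0.71 for INHBA. PTX3 kept its call in each fit without 1 library, and the other 8 did not.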

How the results depend on the processing

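For the shMTHFD2 response, of 3214 called genes 2994 were called again by DESeq2, 3200 with median-of-ratios factors, 3063 with no filter, 3091 with the 4 libraries alone and 2711 with library totals. A 2-fold minimum left 779 genes, 401 higher and 378 lower, and library totals gave 2455 lower (3932 lower in shMock). Leaving out single libraries gave 2373 to 3344 genes for this response. For the interaction, which had 12 called, DESeq2 gave 105 genes (53 higher, 52 lower) and no filter 321 (172 higher, 149 lower). Leaving out 1 library gave 3 to 185 genes, 1 to 99 higher and 2 to 86 lower. The cause was not tested. Replicate numbers do not pair the libraries: deviations of same-numbered libraries correlated at -0.0203 to 0.0687, and a replicate block called 3194 genes in the response, 3122 of them among the 3214, and 13 in the interaction. Over all alternatives 2849 values of single genes kept direction and side of the threshold, 137 lost their call, 1 gained one and 0 reversed. Of the list counts 83 moved by over 1.5 times and 1065 did not. A gene at the floor of 3 counts stands at 0.135 to 0.165 CPM on library totals without TMM scaling. Where 1 group lay below it, a change could be called but its fold is imprecise.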

Other observations

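Further lists of the same response are given as values, beside 12.8% higher and 11% lower over all genes tested. Of 20 AP-1 and immediate-early genes 6 rose and 5 fell (median 0.18): the zinc finger factor EGR2, which passed the filter through its TGF-β1 libraries, went from 1.02 and 0.413 to 8.68 and 6.56 CPM, KLF10 from 19.5 and 19.2 to 51.7 and 45 CPM and JUNB rose by 1.23, while the phosphatase DUSP5 (-1.34) and FOSL2 (-0.90) fell, and the fallen count was 3 without shMTHFD2 TGF-β1 2 or shMTHFD2 control 1. Of 10 complement genes 4 fell and none rose (median -0.20), among them CD55 by 0.54, with 2 without shMTHFD2 TGF-β1 2 or shMTHFD2 control 1. Of 9 Notch genes tested (13 listed) the ligand JAG1 fell from 34.1 and 37.5 to 15.3 and 17.6 CPM, and HEY1, under 1 CPM in all controls, rose from 0.648 and 0.258 to 1.74 and 2.75 CPM, a call that ended when shMTHFD2 control 2 was left out (edgeR adjusted p = 0.0594), and 2 fell without shMock TGF-β1 1 or 2.

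Few lipid synthesis genes were called, and the called share of purine synthesis genes was near the 23.8% over all genes. Of 25 cholesterol and fatty acid genes 1 rose, the desaturase SCD (0.36), and 1 fell, the sterol cyclase LSS (-0.37), with a median of 0.01, and for SCD the edgeR adjusted p was 0.0752 when shMTHFD2 TGF-β1 2 was left out. The fallen count was 2 without shMTHFD2 control 1 or either shMock TGF-β1 library, and 8 with library totals. Of 15 purine genes 1 rose and 2 fell (median 0.02), with the salvage enzyme HPRT1 going from 11.7 and 11.9 to 6.89 and 6.96 CPM. ADSS2 (0.35) was no longer called when shMTHFD2 TGF-β1 1 was left out (edgeR adjusted p = 0.0614), and ATIC (-0.29) lost its call in 8 alternatives (adjusted p = 0.0545 to 0.245, by DESeq2 in 1 of them and by edgeR in the others).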
